A study of Mus musculus with 16 samples.

Results

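H3K4me3, a histone mark of active promoters, was compared in the hippocampus of Kdm5c knockout (KO) mice after novelty and under standard conditions. The comparison was defined by the sample titles, and it took 4 of the 16 libraries of the series, 2 pools after novelty against 2 pools under standard conditions. All 4 came from adult male KO mice, 2 to 4 months old, on a mixed F1 background of C57 and 129, and each pool held the hippocampi of 2 mice. Mice of the novelty group had each spent 1 h in a white box with plastic tubing and small toys, whereas for the KO pools under standard conditions the labels record no treatment. The 4 corresponding WT libraries, 2 per condition with the same sex, age range and background, entered the same fit and served as the comparison group, and the labels describe controls as littermates. The labels call the KO mice mutant for Kdm5c and do not describe the allele. Nothing in the labels ties the KO pools of one condition to those of the other. The p-values use a spread between pools that was estimated over the KO and WT groups together and drawn towards that of other regions. They measure only spread between pools, and that of the KO pools alone enters in part.

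Kdm5c is an X-linked demethylase that removes methyl groups from lysine 4 of histone H3, and its loss causes intellectual disability in humans. A first visit to a new place activates hippocampal neurons, which transcribe immediate-early genes such as Fos, Nr4a1 and Npas4 within minutes through factors such as CREB and SRF. H3K4me3 lies over the start sites of most expressed genes, whether or not they are being induced, and its level usually moves less than the RNA.

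Of the 5 regions called below, 3 hold a RefSeq start. The promoters of 2 of them are shown here beside those of 2 genes whose regions were not called. Each window runs from 250 bases before the start to 50 after it (300 bases, build GRCm38.p6). It is printed 5′ to 3′ on the strand of the gene. Nr4a1 and Hsph1 were called in KO, and Hsp90b1 and Pdia6 stood among the strongest differences that were not called. Capitals mark the core of the cyclic AMP response element in Nr4a1 (TGACG or, read from the other strand, CGTCA), the heat shock element GAANNTTC in Hsph1, and the endoplasmic reticulum stress response element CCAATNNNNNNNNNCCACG, on either strand, in Hsp90b1 and Pdia6.
Nr4a1, chr15:101266596-101266895, plus strand: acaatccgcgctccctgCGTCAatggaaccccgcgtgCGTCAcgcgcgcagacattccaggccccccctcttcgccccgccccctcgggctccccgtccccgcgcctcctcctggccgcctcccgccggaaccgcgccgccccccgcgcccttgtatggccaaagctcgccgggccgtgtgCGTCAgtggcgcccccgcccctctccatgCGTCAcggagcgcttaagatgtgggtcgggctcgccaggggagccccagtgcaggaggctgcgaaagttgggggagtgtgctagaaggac
Hsph1, chr5:149636287-149636586, minus strand: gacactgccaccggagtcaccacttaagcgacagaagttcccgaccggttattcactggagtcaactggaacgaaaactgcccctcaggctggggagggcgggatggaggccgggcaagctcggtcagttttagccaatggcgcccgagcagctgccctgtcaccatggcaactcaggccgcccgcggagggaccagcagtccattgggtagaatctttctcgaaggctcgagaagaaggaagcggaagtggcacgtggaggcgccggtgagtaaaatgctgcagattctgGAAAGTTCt
Hsp90b1, chr10:86705395-86705694, minus strand: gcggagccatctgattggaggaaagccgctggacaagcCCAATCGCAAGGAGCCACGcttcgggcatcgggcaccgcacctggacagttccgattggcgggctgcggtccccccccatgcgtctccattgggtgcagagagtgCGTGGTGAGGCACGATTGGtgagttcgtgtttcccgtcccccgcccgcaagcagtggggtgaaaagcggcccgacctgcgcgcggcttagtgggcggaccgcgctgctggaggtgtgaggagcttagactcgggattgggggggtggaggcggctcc
Pdia6, chr12:17266339-17266638, plus strand: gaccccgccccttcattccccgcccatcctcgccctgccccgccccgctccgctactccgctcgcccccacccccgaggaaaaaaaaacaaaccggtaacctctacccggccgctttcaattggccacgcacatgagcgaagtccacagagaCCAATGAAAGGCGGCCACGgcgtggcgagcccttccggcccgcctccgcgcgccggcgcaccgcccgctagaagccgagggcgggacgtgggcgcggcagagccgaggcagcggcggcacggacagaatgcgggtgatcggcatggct
The Nr4a1 window held this core 4 times, and 20.8% of the 32851 promoters in the RefSeq table held at least 1. The heat shock element, which reads the same on both strands, occurred once in the Hsph1 window and in 7.86% of all promoters. The endoplasmic reticulum stress response element occurred at 2 places in the Hsp90b1 window and once in that of Pdia6, against 0.119% of all promoters. The whole cyclic AMP response element TGACGTCA, which contains the core, was found in 1.79% of promoters, the AP-1 site TGANTCA in 7.81% and the CArG box in 1.63%, and none of these 3 was found in the 4 windows shown. These matches are letters in a sequence and not measured binding. The 4 windows were picked by hand, and each holds the motif marked in it. None of the motifs was found at the RefSeq starts in the called Taf4 region or in the Pdia4 region.

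Total counts over the regions ran from 22055154 to 30435735 in the 8 libraries of the cohort, and 3 counts, the limit that a count of 0 allows, corresponded to 0.0971 to 0.136 CPM (the count of a region scaled to the library size). Replicate libraries correlated at r = 0.991 to 0.992 across regions, which are not independent, and their counts differed by 2.36 to 2.96 times the variance from counting error. H3K4me3 at the end of Kdm5c itself was 61.6 and 61.5 CPM under standard conditions and 61.0 and 61.9 CPM after novelty in KO, and 62.6 to 73.4 CPM in WT. H3K4me3 at an end of Kdm5c says nothing about a deletion further inside. Among the marker lists, the regions of 19 pyramidal and granule neuron genes summed to 1137 to 1211 CPM in the KO libraries, those of 7 choroid plexus and ependyma genes to 84.47 to 90.01 CPM, and 1 of 7 blood cell genes had a region. The second principal component of the 8 libraries put both WT standard libraries on one side (5.30 and 13.65) and both WT novelty libraries on the other (-12.75 and -5.25). KO standard library 1 lay on the standard side (12.82) and KO standard library 2 on the novelty side (-6.75), and the KO novelty libraries lay at 0.11 and -7.13. On this component KO standard library 2 therefore stood apart from its replicate. Other replicates also lay apart, with the WT novelty libraries at 10.81 and -15.97 on the third component. Where leaving out either KO standard library ended the call of a region named below, that value is given beside it.

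Few regions were called for novelty in KO. Of 35841 regions tested, 5 were called by edgeR at an adjusted p under 0.05 (0.014%), all of them higher after novelty, and 1836 had an unadjusted p under 0.05, of which 937 were higher (2.61%) and 899 lower (2.51%). The 5 lay at Pde10a, Hsph1, Taf4, Phactr3 and Nr4a1. The median change of all regions was -0.002 on the log2 scale, and among the 25467 stronger regions (mean log2 CPM 1 or more) 5% of changes lay below -0.23 and 5% above 0.22. Regions whose KO groups did not overlap made up 16.2% of all (higher after novelty) and 17% (lower). The plot of the 5 regions by library shows how far the groups stood apart.

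**Figure D1:**
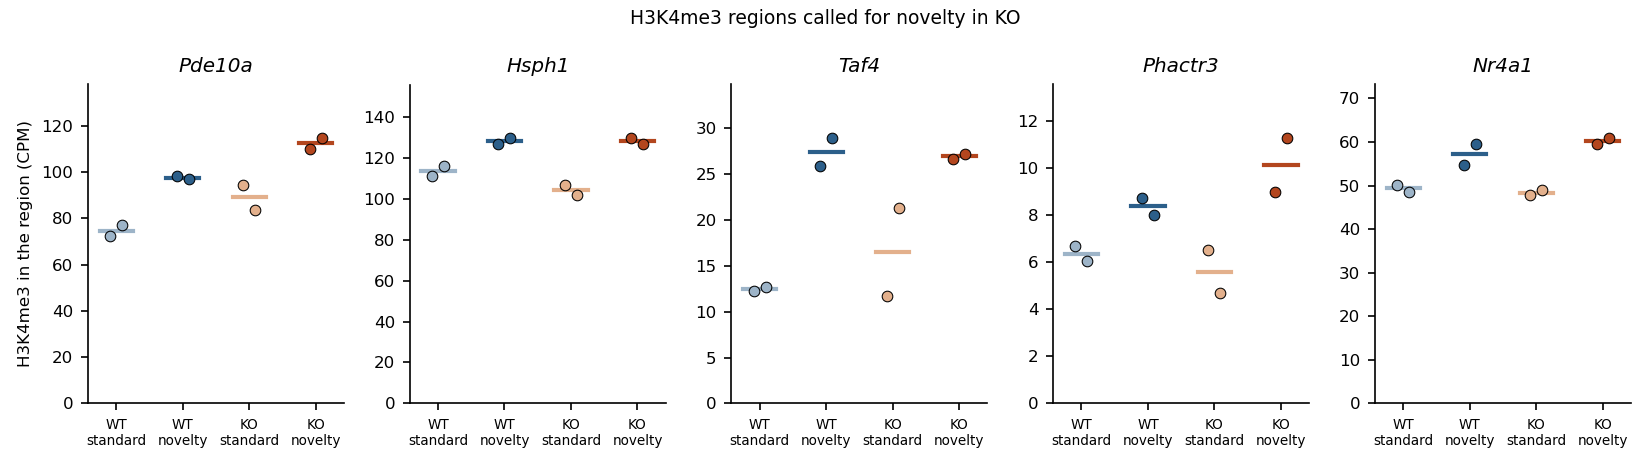
H3K4me3 (CPM, linear axis from 0) in the 5 regions called for novelty in KO, 1 panel each. Points are single libraries (2 per group) and bars are group means; in every panel both KO novelty libraries lie above both KO standard libraries, and at Taf4 KO standard library 1 (11.7 CPM) and library 2 (21.3 CPM) lie far apart.

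Pde10a encodes a phosphodiesterase that degrades cyclic AMP and cyclic GMP and is most abundant in striatal medium spiny neurons. Its called region (chr17:8524069-8527904, mm10) lies at one end of the gene, and its H3K4me3 was 94.7 and 83.8 CPM in KO under standard conditions and 110 and 115 CPM after novelty. The groups did not overlap. The rise was 0.34 ± 0.05 (log2 ± SE) with an adjusted p of 0.0079, or 26.1%. WT libraries went from 72.3 and 77.3 to 98.2 and 96.9 CPM, a rise of 0.38 ± 0.06 (adjusted p 0.0004), and the difference between the responses was -0.05 ± 0.08. Without KO standard library 2 the KO change was 0.25 (adjusted p 0.089). The gene carries another end region inside the locus (chr17:8801658-8803556), which held 69.6 and 74.3 CPM under standard conditions and 69.8 and 66.8 CPM after novelty (-0.07 ± 0.06, unadjusted p 0.19). The region next to it (chr17:8800650-8801593) had a change of 0.02 ± 0.07, so that 1 of the gene's 3 end regions was called. The 15 regions that represent genes of striatum, thalamus and hindbrain, summed per library, lay at 275.4 and 291.7 CPM under standard conditions and at 266.2 and 285.2 CPM after novelty, with a median change of -0.064 and none at an unadjusted p under 0.05.

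Hsph1 encodes a large heat shock protein that serves as a nucleotide exchange factor for Hsp70. Its promoter region (chr5:149634470-149637052), which holds the heat shock element shown above, had 107 and 102 CPM under standard conditions and 130 and 127 CPM after novelty. The rise was 0.29 ± 0.05 (adjusted p 0.0079), or 22.7%, with no overlap. Without KO standard library 2 the KO change was 0.26, and the region was no longer called. In WT the same region had 111 and 116 CPM before and 127 and 130 CPM after novelty, also without overlap (0.18 ± 0.05, adjusted p 0.19). The difference between genotypes was 0.12 ± 0.07 (unadjusted p 0.099).

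Nr4a1 encodes an orphan nuclear receptor transcribed within minutes of neuronal activity. Its promoter region (chr15:101266165-101268082) had 47.8 and 49 CPM under standard conditions and 59.5 and 61.0 CPM after novelty in KO, a rise of 0.32 ± 0.06 (adjusted p 0.027) or 24.4%. WT values were 50.2 and 48.6 CPM before and 54.8 and 59.6 CPM after (0.21 ± 0.06, adjusted p 0.22), and the difference between genotypes was 0.10 ± 0.08 (unadjusted p 0.23). The next region downstream in the gene (chr15:101268252-101269111) held 13.4 and 10.1 CPM and then 15.9 and 16.4 CPM, a difference of 0.46 ± 0.12 that did not pass the threshold (adjusted p 0.43), and WT showed 0.45 ± 0.12 there. A region upstream (chr15:101253652-101255259) had 29.7 and 27.0 CPM and then 33.5 and 31.5 CPM (0.20 ± 0.08, adjusted p 0.85). In WT the groups overlapped at this upstream region (0.03 ± 0.08). Without KO standard library 1 the change at the promoter region was 0.30 (adjusted p 0.097). All 3 regions at the gene were higher in both KO novelty libraries than in both KO standard libraries, as were 16.2% of all regions.

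Taf4 encodes a subunit of TFIID, the complex that binds core promoters. The called region is 714 bp wide (chr2:179975979-179976693) and holds a RefSeq start of Taf4. It had 11.7 and 21.3 CPM under standard conditions and 26.7 and 27.2 CPM after novelty, a rise of 0.70 ± 0.13 (adjusted p 0.027) or 62.3%. KO standard library 1 lay near the 2 WT standard libraries (12.3 and 12.7 CPM), and library 2 lay between these and the novelty libraries. Without KO standard library 1 the change was 0.34 with an adjusted p of 0.37, and without KO standard library 2 it was 1.21 (adjusted p 1.9e-09), so the size of this rise depends on which of the 2 is used. The WT rise, from 12.3 and 12.7 to 25.9 and 29.0 CPM, was 1.14 ± 0.14 (adjusted p 1.1e-05), and the KO response was smaller by -0.44 ± 0.19 (unadjusted p 0.024, not called). The 2 flanking regions did not share the change in KO. The region on one side (chr2:179976822-179977834) held 47.5 and 47 CPM and then 45.2 and 47.2 CPM (-0.03 ± 0.06), and that on the other (chr2:179974830-179975637) 18 and 20.5 CPM and then 19.1 and 19.7 CPM (0.01 ± 0.09). In WT the first had -0.01 ± 0.06 and the second 0.21 ± 0.09 (edgeR unadjusted p 0.028, not called). None of the 15 regions that represent TFIID subunits was called or had an unadjusted p under 0.05, and there Taf4 is represented by the stronger flanking region.

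Phactr3 encodes a protein that binds actin and protein phosphatase 1. The called region lies inside the gene (chr2:178327510-178329830) and was the weakest of the 5, with 6.53 and 4.68 CPM under standard conditions and 9 and 11.3 CPM after novelty. The rise was 0.86 ± 0.16 (adjusted p 0.027) or 81.0%. In WT it had 6.67 and 6.06 CPM before and 8.75 and 8 CPM after novelty (0.39 ± 0.16, adjusted p 0.71), and the difference between genotypes was 0.46 ± 0.23 (unadjusted p 0.049, not called). Without KO standard library 2 the KO change was 0.63 (adjusted p 0.22). The strongest region in the gene (chr2:178142052-178144234) held 90.3 and 90.9 CPM and then 102 and 93.7 CPM in KO (0.11 ± 0.05, unadjusted p 0.042), and -0.06 ± 0.05 in WT. The representing regions of the 4 Phactr genes had changes of 0.03 to 0.16, and none had an unadjusted p under 0.05.

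These calls were not stable to the choice of libraries. With the 4 KO libraries alone none was called and 1672 regions had an unadjusted p under 0.05, and with all 12 H3K4me3 libraries of the series none was called and 1416 did. Leaving out KO novelty library 1 or 2 left 0 calls each (1587 and 1754 at an unadjusted p under 0.05), leaving out KO standard library 1 gave 13 (3 of the 5 among them) and leaving out KO standard library 2 gave 37 (2 of the 5). Leaving out WT standard library 2 gave 2, and WT novelty library 1 or 2 gave 3 each. The 5 changes stayed positive under every one of these settings. Leaving out 1 library could not reverse them, because both KO novelty libraries lay above both KO standard libraries at each region.

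Of the regions next in rank, 3 lie at genes for proteins that fold other proteins in the endoplasmic reticulum. Pdia4, a protein disulfide isomerase, had 65.4 and 62.8 CPM under standard conditions and 77.4 and 76.1 CPM after novelty (0.26 ± 0.05, adjusted p 0.088). Pdia6, another member of that family, had 60.0 and 59.5 CPM and then 68.7 and 72.9 CPM (0.24 ± 0.05, adjusted p 0.22). Hsp90b1, the Hsp90 of the endoplasmic reticulum, had 72.5 and 71.0 CPM and then 84.2 and 83.9 CPM (0.23 ± 0.05, adjusted p 0.22). The KO groups did not overlap at any of the 3, but the rule that picked these regions required this. None was called, and WT differed in the same direction by 0.18, 0.19 and 0.20.

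A list of 28 genes for endoplasmic reticulum chaperones and the unfolded protein response was therefore drawn up after these values were seen, and its counts are a description only. None of its regions was called, 11 were higher at an unadjusted p under 0.05 (39.3%, against 2.61% of all regions) and 0 lower. Without overlap between the groups, 16 were higher (57.1%, against 16.2% of all). Pdia4, Pdia6 and Hsp90b1, the genes that prompted the list, are included in both the 11 and the 16. The median change was 0.094 on the log2 scale in KO and 0.052 in WT. Hspa5, the master chaperone BiP, had 116 and 116 CPM under standard conditions and 128 and 134 CPM after novelty (0.18 ± 0.05, unadjusted p 0.0013). Pdia3 had 82.1 and 83.0 CPM and then 90.0 and 98.8 CPM (0.19 ± 0.05, unadjusted p 0.00094). Calr, the calcium-binding lectin chaperone calreticulin, had 113 and 104 CPM and then 125 and 119 CPM (0.17 ± 0.05, unadjusted p 0.0014). The co-chaperone genes Hyou1 and Sdf2l1 had 0.17 ± 0.05 and 0.19 ± 0.06, and Herpud1, Manf and Creld2 had 0.16, 0.15 and 0.13. Among the other members, the transcription factor genes Ddit3, Xbp1, Atf4 and Atf6 had 0.10, 0.09, 0.05 and -0.03, and Dnajb9 had the lowest value at -0.08. In WT 10 of the 28 were higher and 1 lower at an unadjusted p under 0.05 (3.19% and 2.66% of all regions), and WT shares no library with KO. The KO count lay between 8 and 13 under every alternative, with 8 without KO novelty library 2 and 12 without KO standard library 1. The promoter table held 25 of the 28 genes, and 9 of these (36.0%) had the stress response element printed above, against 0.137% of all genes in the table. List and element were both chosen after values were seen and concern the same stress response. This share therefore describes the choice of the list and says nothing about novelty.

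**Figure D2:**
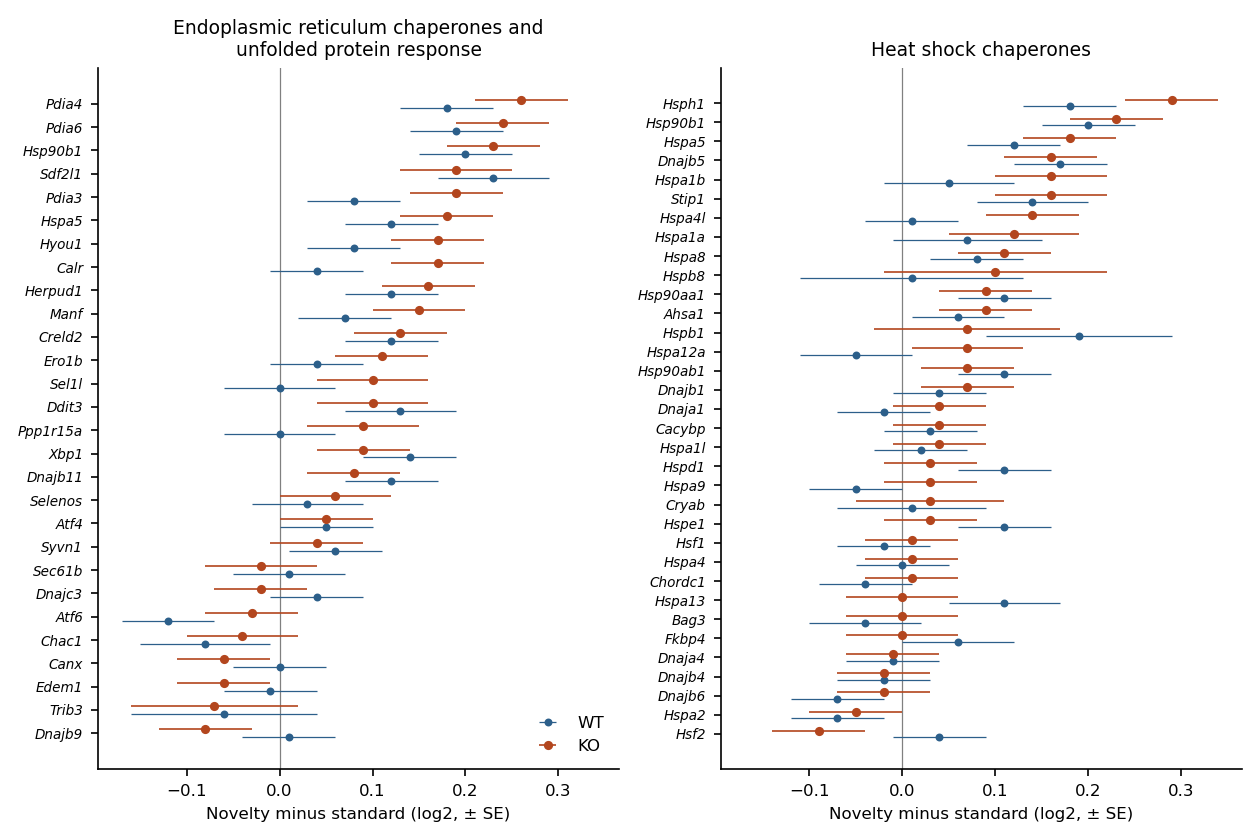
Change in H3K4me3 from standard conditions to novelty (log2, ± SE of the fit; x axis) for each measured gene of the endoplasmic reticulum list (left, 28 genes) and of the heat shock list (right, 34 genes), in KO and in WT. The highest KO values are those of Pdia4 (0.26) on the left and of Hsph1 (0.29) on the right, and the lowest are those of Dnajb9 (-0.08) and Hsf2 (-0.09).

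The heat shock list, 34 genes in 33 regions because Hspd1 and Hspe1 share one, had 1 called member, Hsph1. Another 6 were higher at an unadjusted p under 0.05 (7 of 33 with Hsph1, 21.2% against 2.61% of all regions) and 0 lower. Its median change was 0.038 in KO and 0.043 in WT, and 26 of 33 were above 0. Beside Hsp90b1 and Hspa5, which also belong to the endoplasmic reticulum list, these were Dnajb5, Hspa1b, Stip1 and Hspa4l, with changes of 0.14 to 0.16. Hspa1b, the inducible cytosolic Hsp70, had 43.3 and 41.4 CPM under standard conditions and 47.2 and 47.6 CPM after novelty, but it has a near-identical copy, Hspa1a (0.12), and reads may be split between them. KO standard library 2 was the lowest of the 4 KO libraries in 21 of the 33 regions (63.6%, against 25% of the 25467 stronger regions). Without that library 5 were higher at an unadjusted p under 0.05, the median change was 0.024 and Hsph1 had an adjusted p of 0.058.

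Of the 37 regions of immediate-early transcription regulators 1 was called, at Nr4a1, and the list did not move as a block. At an unadjusted p under 0.05 there were 7 higher and 3 lower (18.9% and 8.11%, against 2.61% and 2.51% of all regions), and the median change was 0.005 in KO and 0.024 in WT. There were 4 higher and 2 lower without KO standard library 2, and 4 higher and 1 lower without KO novelty library 1. Fos, the founding member of the AP-1 family, had 51.2 and 52.0 CPM under standard conditions and 58.3 and 60.8 CPM after novelty (0.21 ± 0.06, adjusted p 0.66), and 0.21 ± 0.06 in WT. Fosb had 72.2 and 69.7 CPM and then 81.1 and 81.0 CPM (0.19 ± 0.05, adjusted p 0.48), and it was called in WT (0.26 ± 0.05, adjusted p 0.02). Both genes were higher without overlap between the KO groups, as were 16.2% of all regions. The differences between genotypes were -0.01 ± 0.08 and -0.07 ± 0.07.

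Per1, a clock gene that is also induced by activity and glucocorticoids, had 80.9 and 72.8 CPM under standard conditions and 83.9 and 93.0 CPM after novelty (0.20 ± 0.06, adjusted p 0.66). Egr2, a zinc finger factor, had 43.4 and 41.5 CPM and then 49.2 and 47.1 CPM (0.18 ± 0.06, adjusted p 0.78). Npas4, a neuronal factor induced by calcium entry, had 44.9 and 40.3 CPM and then 49.1 and 46.2 CPM in the region that holds its RefSeq start (chr19:4988152-4990006, 0.17 ± 0.07, adjusted p 0.89). Both KO novelty libraries were above both KO standard libraries at these 3 genes, as at 16.2% of all regions. The kinase gene Sik1 completed the higher group with 0.13 ± 0.06. The 3 lower ones were Ier5 (-0.14 ± 0.05), Cebpd (-0.12 ± 0.05) and Jund (-0.10 ± 0.05), and none was called.

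Egr1, Egr3 and Junb, 3 classical immediate-early genes, had differences no larger than their SE. Egr1 had 41.5 and 44.9 CPM under standard conditions and 44.7 and 38.8 CPM after novelty (-0.05 ± 0.07), Egr3 had a change of 0.01 ± 0.06, and Junb had -0.04 ± 0.05. Among 27 measured effector genes 0 were called, with a median of 0.033. At an unadjusted p under 0.05, 1 was higher (Ccn1, 0.15 ± 0.07) and 1 lower (Pcdh8, -0.17 ± 0.06). These were 3.7% each, against 2.61% and 2.51% of all regions. In WT 5 of the 27 were higher and 2 lower at that level (3.19% and 2.66% of all regions). Arc, which encodes a synaptic protein that shapes AMPA receptor traffic, had 104 and 101 CPM and then 108 and 109 CPM (0.09 ± 0.05, unadjusted p 0.083). The strongest Bdnf region had 63.5 and 63.8 CPM and then 65.7 and 65.9 CPM (0.05 ± 0.06), and Homer1 had -0.01 ± 0.05. The MAP kinase phosphatase and feedback list had 1 of 16 regions higher (6.25%) and 0 lower at an unadjusted p under 0.05, at Dusp1 (111 and 109 CPM, then 116 and 125 CPM, 0.14 ± 0.05). In WT 4 of the 16 were higher and 0 lower. A narrow second region of Dusp5 (chr19:53530999-53531311) had 3.28 and 2.40 CPM and then 4.66 and 5.67 CPM (0.86 ± 0.21, adjusted p 0.41), whereas the main one had 0.05 ± 0.05. The TGACG core of the cyclic AMP response element was found in 19 of the 27 immediate-early genes that have a RefSeq promoter (70.4%), against 23.0% of all genes with one, and in 17 of 27 heat shock genes (63.0%).

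**Figure D3:**
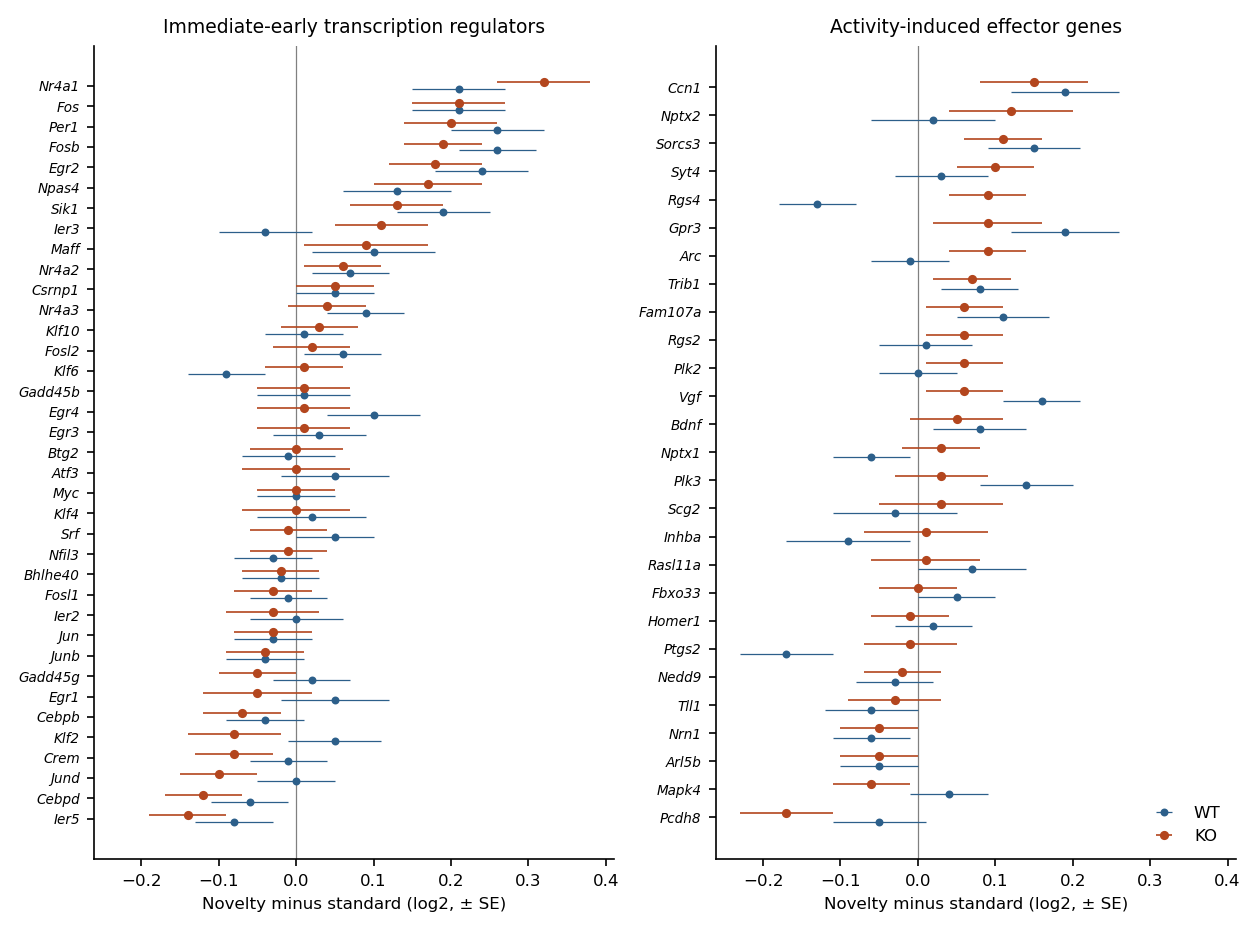
Change in H3K4me3 from standard conditions to novelty (log2, ± SE of the fit; x axis) for 37 immediate-early transcription regulators (left) and 27 activity-induced effector genes (right), in KO and in WT. Nr4a1 has the highest KO value (0.32), Ier5 (-0.14) and Pcdh8 (-0.17) have the lowest of the 2 lists, and most members lie within 2 SE of 0.

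Of 17 glucocorticoid-responsive genes 0 were called and 4 were higher at an unadjusted p under 0.05 (23.5%, against 2.61% of all regions), namely Per1, Dusp1, Hif3a (0.24 ± 0.10) and Zbtb16 (0.11 ± 0.05). Without KO novelty library 2 there were 0 higher and 1 lower, and without KO novelty library 1 there were 7 higher. Per1 is also in the immediate-early list and Dusp1 in the phosphatase list, and Fkbp5 and Sgk1, which respond to the same hormone, had -0.00 and -0.06. Among 15 phosphodiesterase genes Pde10a was called, Pde2a (0.15 ± 0.05) and Pde4a (0.16 ± 0.05) were higher and Pde7b (-0.12 ± 0.06) and Pde8b (-0.11 ± 0.05) lower at an unadjusted p under 0.05. Of 25 regions of genes that signal from synapse to nucleus 1 was higher (4.0%) and 0 lower at that level. The 24 regions of H3K4 methylation enzymes and the 40 of ribosomal protein genes had 0 members at an unadjusted p under 0.05 in either direction, with medians of -0.005 and -0.010. In WT 5 of the 24 were higher and 2 lower, and 0 of the 40 in either direction. Of 14 measured germline and meiosis genes, a group known to depend on Kdm5c for silencing, 1 was lower (7.14%) and 0 higher, with a median of -0.015.

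The lower side of the comparison held no call. Its leading regions with no overlap between the KO groups were inside Lct (14.3 and 11.8 CPM, then 8.97 and 8.82 CPM, -0.55 ± 0.13, adjusted p 0.30), the lactase gene, and at Gm35082 (-0.38 ± 0.09, adjusted p 0.33). Nrarp, a feedback inhibitor of Notch signalling, had 81.8 and 80.6 CPM under standard conditions and 68.0 and 73.0 CPM after novelty (-0.21 ± 0.05, adjusted p 0.43). Jag1, a Notch ligand, had 133 and 131 CPM and then 114 and 118 CPM (-0.19 ± 0.05, adjusted p 0.43). Both genes had values near 0 in WT (-0.02 ± 0.05 and -0.05 ± 0.05), and the differences between genotypes were not called (unadjusted p 0.017 and 0.052). Igfbp5, Naprt and regions inside Eya1, Rbfox1 and Arntl, a clock gene also known as Bmal1, and at Gm35279 had changes of -0.25, -0.37, -0.30, -0.32, -0.89 and -0.81.

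Markers of cell types were read beside these results because in whole tissue fewer cells of a type and less of the mark per cell cannot be told apart. Of 14 astrocyte regions 3 were lower (Slc4a4, Slc1a3 and Gja1, -0.15 to -0.11) and 0 higher at an unadjusted p under 0.05. The 3 made up 21.4%, against 2.51% of all regions, and in WT 2 of the 14 were lower and 0 higher. The KO median was -0.076, with sums of 817.9 and 807.9 CPM under standard conditions against 760.3 and 787.1 CPM after novelty. Of 19 pyramidal and granule neuron regions 3 were lower (C1ql2, Dsp and Pou3f1, -0.24, -0.31 and -0.13) and 1 higher (Slc17a7, 0.13). These were 15.8% and 5.26%, against 2.51% and 2.61% of all regions, and in WT 4 of the 19 were lower and 0 higher. The KO sums were 1211 and 1175 CPM against 1180 and 1137 CPM. The 17 interneuron, 16 oligodendrocyte, 18 microglial and 7 choroid plexus regions had 0 members below that level, and 1 of 20 vascular regions was lower. Of the 17 interneuron regions, 7 were higher without overlap between the KO groups (41.2%, against 16.2% of all) and 0 lower, with a median of 0.074. The part of these shifts in the other results was not tested.

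The WT contrast compared WT libraries only, although the KO libraries entered the shared estimate of the spread. In WT 47 regions were called (0.131%), 40 higher and 7 lower, all of them among the 106 called when the 4 WT libraries were fitted alone, and 2097 had an unadjusted p under 0.05, of which 1145 were higher (3.19%) and 952 lower (2.66%). All 47 differed in the same direction in KO, against 53.5% of all regions, and 20 of them had an unadjusted p under 0.05 there. The KO change was smaller in size than the WT change in all 47, which were chosen on their WT values, with medians of 0.12 in KO and 0.34 in WT for the 40 and of -0.13 and -0.38 for the 7. Taf4 and Pde10a were called in both genotypes. The 3 regions called in KO alone were those at Hsph1, Phactr3 and Nr4a1. In WT they were higher without overlap, as were 18.6% of all regions, and at an unadjusted p under 0.05, as were 3.19%.

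**Figure D4:**
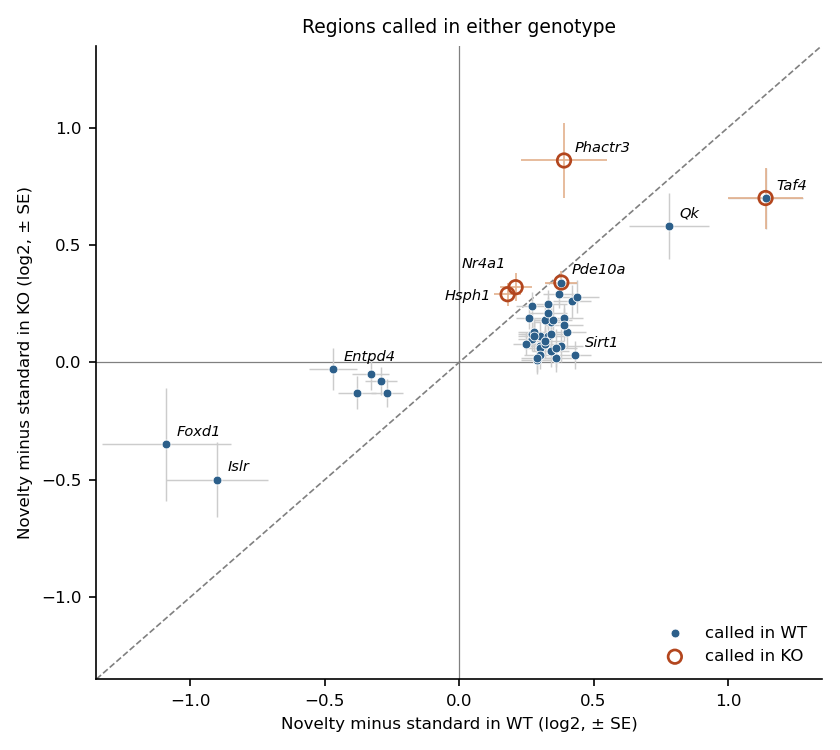
Change from standard conditions to novelty in WT (x axis) and in KO (y axis), both log2 with the SE of the fit, for the 44 regions called in WT whose mean log2 CPM was 1 or more and the 5 called in KO; the dashed line marks equal change. The 44 points lie to the lower left and upper right of the origin and nearer to 0 in KO than in WT, and the 3 regions called in KO alone lie above the line.

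The size of this shared response rested on KO standard library 1. At the 47 regions, with each value turned so that the WT change is positive and set against the mean of the 4 KO libraries, the median was -0.201 in KO standard library 1, 0.052 in KO standard library 2, 0.078 in KO novelty library 1 and 0.059 in KO novelty library 2 (log2 CPM). KO standard library 1 was the lowest of the 4 in 43 of the 47 (91.5%, against 27.1% of the 25467 stronger regions), and KO standard library 2 was the lowest in 3. Without KO standard library 1 the median KO change at the 47 regions was 0.020, with 32 of 47 in the WT direction. Without KO standard library 2 it was 0.248, with 47 of 47. At these regions KO standard library 2 thus lay closer to both novelty libraries than to its own replicate, and whether KO responded less than WT cannot be told apart from the difference between these 2 pools.

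**Figure D5:**
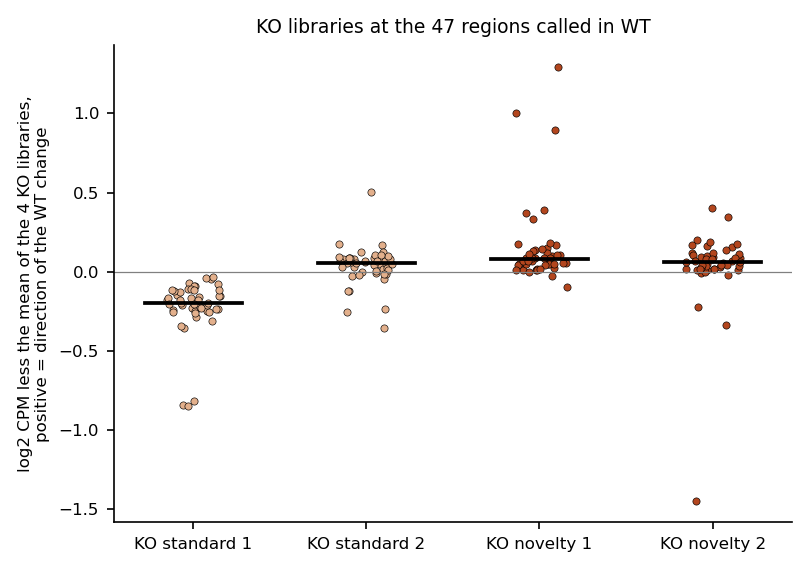
Level of each KO library at the 47 regions called in WT (points), as log2 CPM less the mean of the 4 KO libraries, with the sign turned so that positive values follow the WT change; black bars are medians. KO standard library 1 has a median of -0.201, and KO standard library 2 (0.052) sits with the novelty libraries (0.078 and 0.059).

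Several of these regions show the pattern one by one. Wtip had 41.6 and 55.4 CPM under standard conditions and 58.7 and 59.3 CPM after novelty in KO, and Zfp704 had 73.3 and 92.0 CPM and then 92.7 and 93.8 CPM. Zfp362 had 71.1 and 91.4 CPM and then 93.2 and 93.0 CPM. A narrow region at Qk, which encodes an RNA-binding protein (chr17:10318737-10319285), had 9.23 and 18.6 CPM and then 20.9 and 21.1 CPM, whereas its stronger neighbour had 114 and 112 CPM and then 113 and 108 CPM. In all 4 regions KO standard library 2 stood closer to the novelty libraries than to its replicate. Pde10a and Fosb did not follow it, since KO standard library 2 was there the lower of the pair, and Nfyb, which encodes a subunit of the CCAAT-binding factor NF-Y, had 55.8 and 63.8 CPM and then 74.4 and 71.5 CPM (0.29 ± 0.06, adjusted p 0.095), with 0.37 ± 0.06 in WT.

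A direct test of the difference between the KO and WT responses called 0 regions (0.0%), and 1401 had an unadjusted p under 0.05. DESeq2 and limma-voom also called 0, and edgeR called 12 without KO standard library 1. The smallest p was at Sirt1, which encodes a protein deacetylase, where KO had 79.5 and 82.9 CPM under standard conditions and 84.8 and 80.9 CPM after novelty (0.03 ± 0.06). WT went from 62.2 and 75.2 to 90.4 and 95 CPM (0.43 ± 0.06), and the difference was -0.40 ± 0.08 (unadjusted p 2.6e-05, adjusted p 0.94). Gatad2a, a subunit gene of the NuRD complex, had 62.8 and 72.0 CPM and then 68.2 and 68.5 CPM in KO (0.02 ± 0.06), and the difference from the WT rise of 0.36 ± 0.06 was -0.34 ± 0.08 (unadjusted p 0.00016). In the other direction, the region near Rab3d had 12.4 and 12.1 CPM and then 16.3 and 14.9 CPM in KO (0.35 ± 0.11) but -0.29 ± 0.12 in WT, and Sv2b, a synaptic vesicle protein gene, had 0.24 ± 0.06 in KO and 0.03 ± 0.06 in WT (unadjusted p of the difference 0.015). None of these differences was called.

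The KO changes were also counted by position, chromosome and strength. Gene ends had 597 of 21326 regions higher and 535 lower at an unadjusted p under 0.05 (2.8% and 2.51%), the inside of genes 2.1% and 2.84%, and regions between genes 2.71% and 1.99%. On chromosome X 10 of 958 regions were higher and 14 lower (1.04% and 1.46%, against 2.66% and 2.54% on the other chromosomes). Of 2314 regions that overlap a region in the deposited Kdm5C files 1 was called, 39 were higher and 51 lower (1.69% and 2.2%), with a median of -0.007. At the strongest regions, with a mean log2 CPM above 6, more were lower than higher without overlap (21.8% against 14.0%, with 17% and 16.2% of all regions), and their median was -0.009 (-0.001 with offsets fitted to region strength).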

How the data were processed

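The deposited H3K4me3 files give, per the file headers, 1 raw read count per region and library for a shared set of regions. Per the submitters' processing notes, the authors used MACS2 2.1.0, R 3.3, DESeq2 1.10.0, SAMtools 1.3.1 and Bowtie2 2.2.9, with build mm10; the sources used here do not give how regions were defined or counted. The deposited Kdm5C files give a signal per region, and only their region positions were used, with an overlap of at least 1 bp. The H3K4me1 files were not used.

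Of 36005 rows, 9 repeated another and were removed. Coordinates are as the files give them. A region was named for a gene when within 2 kb of either gene end or of a RefSeq start (the gene table gives no strand), otherwise for the gene around it, otherwise for the nearest within 50 kb. In lists, a gene is represented by its gene-end region with the most counts. Of 461 list genes 417 had one.

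The 8 libraries of the KO cohort were fitted with 1 mean per group in edgeR 4.0.16 (R 4.3.3; TMM, filterByExpr, quasi-likelihood F test, Benjamini-Hochberg over 35841 regions, threshold 0.05). The filter removed 155 regions. "Called", "rose" and "fell" mean past that threshold, SE comes from the F statistic, and CPM uses TMM-scaled sizes. With 2 libraries against 2, a permutation test of 1 region could not reach the threshold. Named were all called regions, the 20 higher and 10 lower ones with the smallest p, a mean log2 CPM of at least 1 and no overlap, list members at an unadjusted p under 0.05 or named in the rule, the regions called in WT and the 5 with the smallest p for the difference; other regions of these genes were added after their values were seen. Alternatives were RLE, library totals, strength offsets, other filters, DESeq2 1.42.0, limma-voom (limma 3.58.1), other sets of libraries, a replicate block and leaving out each library. The fit was tested on simulated counts. Motifs were searched on both strands of RefSeq promoters; the stress response element was added after values were seen. The comparison, the lists and the rules were chosen with earlier results of these data known. The limit for a count of 0 covers counting error only, because PCR copies of a fragment were not told apart by molecular identifiers.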

Additional observations from a re-analysis of the deposited data

How the results depend on the processing

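Of the 5 regions called in KO, all stayed higher after novelty under the 18 alternatives. Leaving out 1 library could not reverse this direction, because the KO groups did not overlap at these regions. Hsph1 and Pde10a kept their calls in 13 each, Nr4a1 in 9, Taf4 in 8 and Phactr3 in 7. The number of regions called in KO was 9 with library totals, 11 with offsets fitted to region strength, 3 among regions of mean log2 CPM 1 or more, 2 with DESeq2, 3 with limma-voom, 0 with the compared groups alone and 0 with all 12 H3K4me3 libraries; leaving out 1 library gave 0 to 37. In WT (47) it was 17 with DESeq2, 23 with limma-voom, 106 with the WT groups alone and 2 with all 12 libraries, and leaving out 1 library gave 1 (WT standard library 1) to 127 (KO standard library 1). For the difference between the responses (0), leaving out 1 library gave 0 to 12. The causes were not tested.

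With the replicate number as a replicate block, 14 regions were called in KO (13 higher and 1 lower, the 5 among them), 65 in WT and 1 for the difference. The deviations of same-numbered libraries correlated at 0.121 between the KO groups and 0.117 between the WT groups, and at -0.025 to 0.023 otherwise; 2 numbers do not show a pairing.

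Depth limits the weak regions: the 3 counts that a count of 0 allows correspond to up to 0.136 CPM, and Phactr3 rested on 125 to 278 counts per KO library. Leave-out settings that drop a WT library from the KO comparison were chosen after seeing the data.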

Other observations

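Smad4 encodes a signal transducer of the TGF-beta pathway. A region inside it had 6.65 and 5.47 CPM in KO under standard conditions and 3.56 and 1.45 CPM after novelty, -1.23 ± 0.34 on the log2 scale (edgeR unadjusted p 0.00085, adjusted p 0.56), and it was the only one of the 25467 stronger regions with a KO change beyond 1 in size. WT had 3.72 and 1.49 CPM and then 8.19 and 2.13 CPM there. A second region inside the gene had 4.49 and 3.22 CPM and then 2.75 and 0.952 CPM in KO, and 2.81 and 0.905 CPM and then 4.72 and 1.31 CPM in WT. The KO groups did not overlap at either region, although the KO novelty libraries lay well apart. In WT the groups overlapped, and the novelty libraries differed by more than the group means did. The region at the gene end had 80.9 and 95.1 CPM and then 106 and 102 CPM in KO.

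Weak regions inside Creb1, the gene of the transcription factor that binds the cyclic AMP response element, were called in WT at 3 places. The one with the largest WT change (chr1:64573912-64574429) had 0.272 and 0.0453 CPM in WT under standard conditions, the latter below the limit of 0.136 CPM that a count of 0 allows, and 1.12 and 1.98 CPM after novelty. KO had 0.624 and 1.12 CPM and then 1.94 and 0.290 CPM, so that the KO groups overlapped (0.41 ± 0.48). The strong region at the gene end had 110 and 112 CPM and then 113 and 120 CPM in KO, a difference of 0.07 ± 0.05.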
